A study of Homo sapiens with 8 samples.

Results

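Lysophospholipid receptors and protease-activated receptors were followed across the RNA-seq libraries of 2 human prostate cancer cell lines, 22RV1 and DU145, that are established and widely used. The 10 genes described, among 58828 in the count tables, are S1PR1, S1PR2, S1PR3, S1PR5, LPAR1, LPAR2, LPAR3, LPAR6, F2R and F2RL1. They were selected by symbol and chosen with results of these data known, so their fold changes are given as a description with no p-value. Where a receptor is said below to be called or to pass a limit, that too is a description and is not read as a test. Each cell line carried an empty lentiviral vector or a doxycycline-inducible, HA-tagged PAGE4 construct, and was treated for 12 h with PBS or with H2O2 at 200 mM, the dose that labels and methods give, while lower doses are named for other experiments of the study. Vector cells and PAGE4 cells alike had received lentivirus, puromycin selection and doxycycline, and were populations of surviving cells. The 4 libraries of each line were vector cells with PBS, vector cells with H2O2, PAGE4 cells with PBS and PAGE4 cells with H2O2. Each condition has 1 library, and a difference between 2 conditions therefore lacks any check by replicates. The raw count of PAGE4, the check of the construct, was 0 or 1 in the 4 vector libraries and between 1001 and 1489 in the 4 PAGE4 libraries.

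Sphingosine 1-phosphate (S1P) and lysophosphatidic acid (LPA) are lipids that are present in serum, and they act through G protein-coupled receptors at the cell surface. The S1PR receptors are related to LPAR1, LPAR2 and LPAR3, while LPAR4, LPAR5 and LPAR6 belong to a separate branch that is closer to purine receptors. Protease-activated receptors (PARs) are switched on when a protease cuts their outer end and exposes a tethered ligand. F2R (PAR1) is the thrombin receptor, and F2RL1 (PAR2) is cut by trypsin-like enzymes such as matriptase, the product of ST14. These receptors signal through the Gi, Gq and G12/13 proteins.

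The positions of the genes were read from the GENCODE annotation of GRCh38. F2R (chr5:76716126-76735770) and F2RL1 (chr5:76818933-76835315) lie close together on the plus strand of chromosome 5, beside another receptor of the family, F2RL2 (chr5:76615482-76623413). S1PR2 (chr19:10221433-10231331), S1PR5 (chr19:10512742-10517931) and LPAR2 (chr19:19623655-19628930) are on the minus strand of chromosome 19. S1PR3 (chr9:88990863-89005155, plus strand) and LPAR1 (chr9:110873263-111038470, minus strand) are on chromosome 9, and LPAR3 (chr1:84811602-84893206, minus strand) and S1PR1 (chr1:101236865-101243713, plus strand) are on chromosome 1. LPAR6 (chr13:48389567-48444704, minus strand) lies within RB1 on the opposite strand, and its main transcript is a single exon inside intron 17 of RB1.

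S1PR3, S1PR5 and LPAR1 are the 3 receptors whose H2O2 response was called different between the 2 lines in the main fit. The 250 bases in front of a transcription start site of each are shown for that reason. Under other settings S1PR5 dropped out of this set, or F2R and F2RL1 joined it, as given at the end. The sequences are from RefSeq windows on GRCh38.p14, 5′ to 3′ on the strand of the gene, at chr9:88990613-88990862 (plus strand) for S1PR3, at chr19:10517966-10518215 (minus strand) for S1PR5 and at chr9:111038471-111038720 (minus strand) for LPAR1.
S1PR3: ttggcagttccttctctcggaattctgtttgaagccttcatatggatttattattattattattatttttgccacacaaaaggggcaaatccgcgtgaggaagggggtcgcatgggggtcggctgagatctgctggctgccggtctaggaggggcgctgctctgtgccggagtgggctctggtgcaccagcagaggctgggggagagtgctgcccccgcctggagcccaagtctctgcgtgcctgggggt
S1PR5: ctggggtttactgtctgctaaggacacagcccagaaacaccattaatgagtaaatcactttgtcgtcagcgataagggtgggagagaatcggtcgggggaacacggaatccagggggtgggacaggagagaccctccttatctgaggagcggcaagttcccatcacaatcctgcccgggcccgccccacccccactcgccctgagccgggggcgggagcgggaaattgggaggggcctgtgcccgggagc
LPAR1: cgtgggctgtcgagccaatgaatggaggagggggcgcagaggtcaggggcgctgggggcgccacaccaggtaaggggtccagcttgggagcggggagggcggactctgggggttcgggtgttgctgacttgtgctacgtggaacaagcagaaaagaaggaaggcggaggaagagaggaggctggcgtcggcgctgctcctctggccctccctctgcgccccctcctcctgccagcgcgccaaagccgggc
The G and C bases made up 57.2% of the S1PR3 stretch, 61.6% of the S1PR5 stretch and 68.0% of the LPAR1 stretch. RefSeq windows, from 250 bases before a start site to 50 after it, were found for 9 of the 10 receptors, 16 windows in all. They were searched on both strands for the AP-1 motif TGANTCA, the antioxidant response element core TGACNNNGC and the TEAD motif GGAATG. Among all 35116 promoter windows, 7.71% held the AP-1 motif, 13.3% the antioxidant response element core and 14.0% the TEAD motif. The TEAD motif was in the F2RL1 window, and the antioxidant response element core was in the S1PR1 window and in 1 of the LPAR1 windows. LPAR2 had an AP-1 match and an antioxidant response element match at the same place, which share bases. The 3 stretches printed above hold none of the 3 motifs, which says only that these letters are not in these windows.

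F2R is the one gene of the 10 for which the study lists PCR primers, and its primers show which part of the transcript that assay reads. The forward primer lies at chr5:76732592-76732612 and the reverse primer at chr5:76732685-76732705, and both match exon 2 of the 2 exons of the main F2R transcript, so that the 114 bp product crosses no intron.
F2R forward primer: gccatcgttgtgttcatcctg
F2R reverse primer: gctgatcttaaaggggagcac

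The deposited values are raw read counts per gene, with totals of 25482984 to 43310401 per library. Levels are given as CPM, the read count scaled to the size of its library (by TMM), with exact Poisson 95% intervals, which cover counting error only since reads are not independent molecules. A floor of 3 counts in a library corresponds to 0.0684 to 0.122 CPM. All 10 receptors passed the filter on low counts in the fits across the 8 libraries, and S1PR1 alone was at or under the floor in any library. In fits across the 8 libraries, a gene is called, or past the limit, at an adjusted p under 0.05 over all genes in edgeR's quasi-likelihood test. Markers of the lines were checked beside the receptors: all 6 genes of a 22RV1 list, such as KLK3 and FOLH1, were higher in 22RV1 cells, with a summed level of 332 to 1044 CPM there and 8.47 to 25.8 CPM in DU145 cells. Of 6 genes listed for DU145 cells, VIM, CAV1, AXL and S100A2 were higher in DU145 cells, LGALS1 was higher in 22RV1 cells and CD44 did not pass the test, and their summed level was 1003 to 1188 CPM in DU145 cells and 217 to 319 CPM in 22RV1 cells.

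The first comparison was between the cell lines, and the receptors fell into different sets in the 2 lines. LPAR3, an LPA receptor, was abundant in 22RV1 cells and scarce in DU145 cells. LPAR1, LPAR2, S1PR2, S1PR5 and F2R showed the opposite order, with every DU145 library above every 22RV1 library. The share of all genes separated in this way was not counted, so the separation is not read as a trait of these receptors. Between the lines, 31.9% of all 22418 genes tested were called higher and 28.5% lower in 22RV1 cells. F2RL1 was abundant in both lines, and S1PR1, the main S1P receptor of lymphocytes and vessels, was close to the detection limit in both.

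LPAR3 stood at 44.3 CPM in 22RV1 vector cells with PBS, 27.2 CPM in vector cells with H2O2, 68.9 CPM in PAGE4 cells with PBS and 52.7 CPM in PAGE4 cells with H2O2. In DU145 cells, the same conditions gave 1.16, 1.13, 1.80 and 1.06 CPM. The lowest 22RV1 library was therefore far above the highest DU145 library, and the log2 fold change of LPAR3 in 22RV1 cells over DU145 cells was 5.20 ± 0.20 (SE from the edgeR fit, 4 pairs of libraries).

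LPAR1, an LPA receptor known from fibroblasts, had 9, 12, 9 and 32 reads in the 22RV1 libraries, in the order vector with PBS, vector with H2O2, PAGE4 with PBS and PAGE4 with H2O2. These reads correspond to 0.205, 0.304, 0.226 and 1.11 CPM. In DU145 cells, LPAR1 stood at 31.5, 10.6, 28.4 and 11.5 CPM in the same order. The groups did not overlap, and the log2 fold change in 22RV1 cells over DU145 cells was -5.53 ± 0.64.

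LPAR2, another LPA receptor, was at 3.92, 4.71, 3.19 and 3.18 CPM in 22RV1 cells and at 24.3, 24.4, 28.8 and 29.2 CPM in DU145 cells. It varied little within a line, and its log2 fold change between the lines was -2.83 ± 0.20. LPAR6, of the purine receptor branch, was at 1.89, 2.1, 1.46 and 2.15 CPM in 22RV1 cells and at 1.09, 0.689, 1.32 and 1.34 CPM in DU145 cells. All 22RV1 values of LPAR6 were above all DU145 values, but their counting intervals overlapped and the difference of 0.80 ± 0.33 did not pass the limit, though it did without the block (0.78).

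Among the S1P receptors, S1PR2, which couples strongly to G12/13, was at 1.57, 2.84, 0.980 and 1.73 CPM in 22RV1 cells. In DU145 cells it stood at 10.9, 11.1, 11.5 and 12.0 CPM, so the groups did not overlap, and the log2 fold change was -2.75 ± 0.29. S1PR5, best known from natural killer cells and oligodendrocytes, was at 1.19, 0.735, 2.46 and 2.39 CPM in 22RV1 cells and at 12.3, 4.74, 13.4 and 4.42 CPM in DU145 cells. Its groups did not overlap either, and its log2 fold change was -2.35 ± 0.40.

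S1PR3, which couples to Gi, Gq and G12/13, was the 1 receptor past the limit between the lines whose groups overlapped. It was at 8.48, 10.6, 0.929 and 1.49 CPM in 22RV1 cells and at 23.8, 10.0, 12.0 and 6.05 CPM in DU145 cells. Its log2 fold change between the lines was -1.69 ± 0.53, and the call was lost without the pair of PAGE4 libraries with H2O2 (-1.59) and without the block (-1.26). The tables also list C9orf47, a symbol that RefSeq now treats as a synonym of S1PR3, as a row of its own. C9orf47 had 17, 25, 1 and 2 reads in 22RV1 cells and 15, 16, 5 and 6 reads in DU145 cells, under the S1PR3 count of the same library in every case.

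The thrombin receptor F2R was at 3.65, 0.963, 3.97 and 2.11 CPM in 22RV1 cells and at 14.9, 8.71, 14.7 and 14.1 CPM in DU145 cells. Every DU145 library was above every 22RV1 library, with a log2 fold change of -2.42 ± 0.25. F2RL1, the trypsin and matriptase receptor, was at 28.8, 36.7, 22.2 and 22.8 CPM in 22RV1 cells and at 21.1, 34.5, 33.6 and 59.8 CPM in DU145 cells. Its ranges overlapped, and the difference of -0.35 ± 0.27 did not pass the limit.

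S1PR1 had 5, 16, 7 and 10 reads in 22RV1 cells and 0, 5, 5 and 1 reads in DU145 cells. The highest of these, in 22RV1 vector cells with H2O2, is 0.405 CPM with an interval of 0.232 to 0.658 CPM. The 0 reads in DU145 vector cells with PBS are under the floor of 3 counts, 0.109 CPM in that library, and their interval reaches up to 0.133 CPM.

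In the fit of the lines across the 8 libraries, 6 of the 10 receptors were called lower in 22RV1 cells, against 28.5% of all 22418 genes tested, and 1 was called higher, against 31.9%. S1PR1, LPAR6 and F2RL1 were the 3 not called. The median log2 fold change of the 10 receptors was -2.02, beside 0.08 over all genes, and nothing is read from either since the receptors were chosen with these data known. The 4 libraries of a line share its culture history, so these values describe the libraries and not independent cultures. In bulk RNA, fewer cells with a transcript and less of it per cell cannot be told apart.

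**Figure D1:**
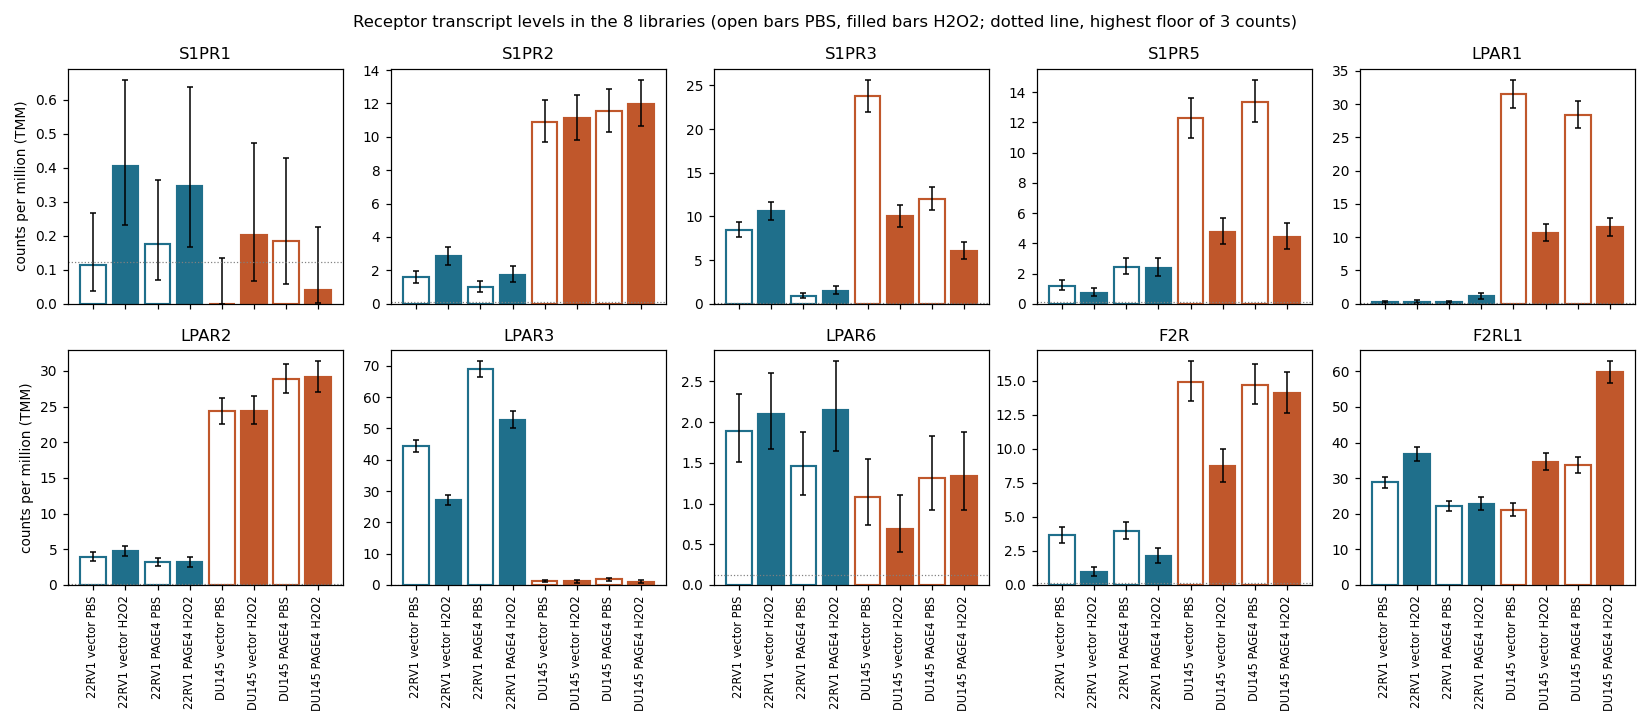
Levels of the 10 receptors in each of the 8 libraries, in CPM after TMM scaling, on linear axes from 0 that differ between panels. Bars are 1 library each (blue for 22RV1, orange for DU145, open for PBS, filled for H2O2), error bars are exact Poisson 95% intervals, and the dotted line is the highest floor of 3 counts. LPAR3 is high in the 22RV1 libraries, from 27.2 to 68.9, and LPAR1, LPAR2, S1PR2, S1PR5 and F2R are high in the DU145 libraries.

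To compare levels between genes, the CPM were divided by the length of the main transcript. In 22RV1 cells, LPAR3 had the highest mean level at 13.7 CPM per kb (range 7.73 to 19.6 over the 4 libraries), followed by F2RL1 at 9.65 (range 7.75 to 12.8). These ranges overlapped, and both genes were above LPAR2 at 2.1 CPM per kb (range 1.78 to 2.64). From LPAR2 downward through S1PR3, LPAR6, S1PR5, F2R, S1PR2, LPAR1 and S1PR1, each gene overlapped its neighbour. In DU145 cells, the order was LPAR2 at 14.9 CPM per kb (range 13.6 to 16.3), F2RL1 at 13.0 (range 7.38 to 20.9), LPAR1 at 5.37, S1PR5 at 3.72, F2R at 3.52, S1PR2 at 3.12 and S1PR3 at 2.99, with overlapping neighbours. A gap separated these 7 genes from LPAR6 at 0.561 CPM per kb and LPAR3 at 0.366, and another gap separated LPAR3 from S1PR1 at 0.0384. Most places depended on the length used. Without length, 4 of 10 places held in 22RV1 cells and 3 of 10 in DU145 cells, and with all annotated exons as the length, an alternative chosen after seeing the data, 5 and 3 held. In both alternatives F2RL1 took the first place in DU145 cells from LPAR2, while LPAR3 and F2RL1 led in 22RV1 cells throughout. The length of S1PR3 by all exons is 13.7 kb in place of 4.33 kb and its place in 22RV1 cells went from 4 to 8.

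The second comparison was H2O2 against PBS in each of the 4 kinds of cell. S1PR3, S1PR5 and LPAR1 were lower with H2O2 in both DU145 pairs, and their response differed in 22RV1 cells. F2R was lower with H2O2 in 3 of the 4 pairs. LPAR3 was lower in both 22RV1 pairs and, from few reads, in DU145 PAGE4 cells. F2RL1 was higher in both DU145 pairs and in 22RV1 vector cells. LPAR2 stayed within its counting error in all 4 pairs. The log2 ratios below compare 2 libraries each, and their 95% intervals are exact conditional binomial (Clopper-Pearson) intervals for counting error only.

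LPAR1 had log2 ratios of H2O2 over PBS of -1.57 (interval -1.77 to -1.37) in DU145 vector cells and -1.30 (interval -1.51 to -1.11) in DU145 PAGE4 cells. In 22RV1 cells, where it had few reads, the ratios were 0.57 (interval -0.80 to 1.99) in vector cells and 2.29 (interval 1.19 to 3.54) in PAGE4 cells. The interval of 22RV1 vector cells included 0, and the log2 response in 22RV1 cells exceeded that in DU145 cells by 3.10 ± 0.47.

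S1PR3 had log2 ratios of -1.25 (interval -1.46 to -1.03) in DU145 vector cells and -0.99 (interval -1.28 to -0.71) in DU145 PAGE4 cells. In 22RV1 cells, the ratios were 0.33 (interval 0.12 to 0.53) in vector cells and 0.68 (interval 0.01 to 1.35) in PAGE4 cells. S1PR3 was thus lower with H2O2 in DU145 cells and slightly higher in 22RV1 cells, and its response differed between the lines by 1.64 ± 0.28.

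S1PR5 had log2 ratios of -1.37 (interval -1.69 to -1.06) and -1.60 (interval -1.92 to -1.28) in DU145 vector and PAGE4 cells. The ratios were -0.69 (interval -1.40 to -0.01) and -0.04 (interval -0.51 to 0.42) in 22RV1 vector and PAGE4 cells. No pair was higher with H2O2, and the response differed between the lines by 1.25 ± 0.36, a difference that did not pass the limit in DESeq2's Wald test (1.19). S1PR2, the other S1P receptor of DU145 cells, had ratios of 0.03 and 0.05 there, with intervals from -0.21 to 0.27 and from -0.18 to 0.29, and ratios of 0.85 and 0.82 in 22RV1 cells. Its intervals in 22RV1 cells, 0.40 to 1.30 and 0.19 to 1.46, lay above 0.

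F2R had log2 ratios of -1.92 (interval -2.47 to -1.40) in 22RV1 vector cells and -0.91 (interval -1.36 to -0.48) in 22RV1 PAGE4 cells. In DU145 cells, the ratios were -0.78 (interval -1.02 to -0.54) in vector cells and -0.06 (interval -0.27 to 0.15) in PAGE4 cells. The lower F2R level with H2O2 was therefore less marked in PAGE4 cells than in vector cells of both lines. The response of PAGE4 cells exceeded that of vector cells by 1.01 ± 0.34 for 22RV1 and by 0.72 ± 0.16 for DU145 (SE from counting error only), and F2R was already singled out in earlier results of these data.

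F2RL1 had log2 ratios of 0.35 (interval 0.24 to 0.46) in 22RV1 vector cells and 0.04 (interval -0.11 to 0.19) in 22RV1 PAGE4 cells. The ratios were 0.71 (interval 0.55 to 0.86) in DU145 vector cells and 0.83 (interval 0.71 to 0.95) in DU145 PAGE4 cells. F2RL1 was the 1 receptor past the limit over all 4 pairs, at 0.49 ± 0.14, and the call was lost without the 22RV1 vector pair (0.55), without the DU145 vector pair (0.43), without the DU145 PAGE4 pair (0.39) and when the block was the cell line (0.52).

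LPAR3 had log2 ratios of -0.71 (interval -0.81 to -0.60) in vector cells and -0.39 (interval -0.48 to -0.30) in PAGE4 cells of 22RV1. Among markers of 22RV1 cells, 4 of 6 were also called lower with H2O2, beside 11.2% of all genes. Their summed level went from 1044 to 332 CPM in vector cells and from 843 to 382 CPM in PAGE4 cells. In PAGE4 cells against vector cells, this sum was lower with PBS and higher with H2O2, while LPAR3 was higher with either. The part of these markers in the LPAR3 values was not tested. In DU145 cells, LPAR3 had only 26 to 49 reads per library, and its ratios were -0.03 (interval -0.81 to 0.75) and -0.77 (interval -1.51 to -0.05). The response of LPAR3 differed between the lines by -0.05 ± 0.32, which did not pass the limit.

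LPAR2 had its largest ratio, 0.26, in 22RV1 vector cells, and every interval of its 4 pairs included 0. LPAR6 had ratios of 0.15 and 0.56 in 22RV1 vector and PAGE4 cells and of -0.66 and 0.02 in DU145 cells, and the interval lay above 0 only in 22RV1 PAGE4 cells (0.02 to 1.10). RB1, in whose intron LPAR6 lies, had 478 to 3383 reads per library and log2 ratios of -0.45, -0.34, -1.20 and -1.14 in the same order of pairs. Whether counting used strand is not given in the sources used here, so reads of the 2 genes may not be fully separate, and the part of RB1 in the LPAR6 values was not tested. S1PR1 had a ratio of 1.83 (interval 0.32 to 3.63) in 22RV1 vector cells, from 5 and 16 reads, and an interval that included 0 in both PAGE4 pairs. In DU145 vector cells, it had 0 reads with PBS and 5 with H2O2.

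Over the 8 libraries, 1 of the 10 receptors was called higher with H2O2, against 8.89% of all 22418 genes, and the remaining 9 were not called, while 11.2% of all genes were called lower. By unadjusted p under 0.05, 4 of 10 passed, beside 7747 of all 22418 genes. In the fit of the difference between the lines, S1PR3, S1PR5 and LPAR1 were called with a higher response in 22RV1 cells, against 8.76% of all genes called in that direction and 7.54% in the other. Between 2 libraries, a gene was counted as changed when its normalized counts differed by more than 1.5-fold, among genes with a mean of at least 10 in the line, which left out S1PR1. By that count, 4 of 9 receptors changed in 22RV1 vector cells (38.6% of all genes), 4 in 22RV1 PAGE4 cells (31.1%), 6 in DU145 vector cells (40.8%) and 5 in DU145 PAGE4 cells (41.9%). Nothing is read from these shares.

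**Figure D2:**
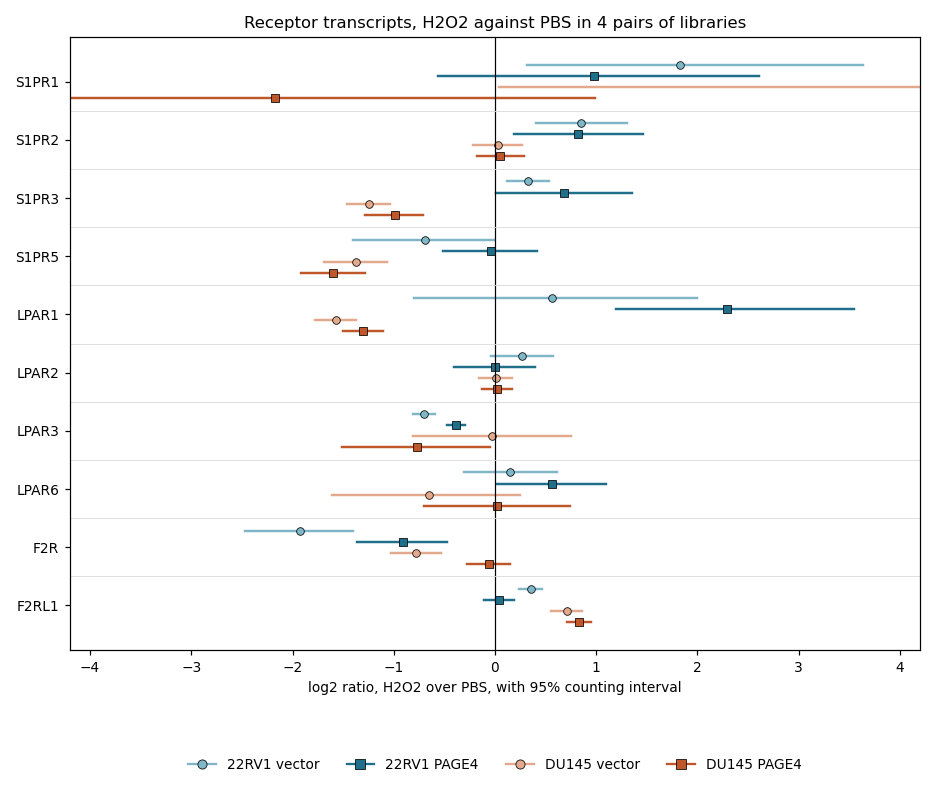
Log2 ratio of H2O2 over PBS for each receptor in the 4 pairs of libraries (circles for vector cells, squares for PAGE4 cells, blue for 22RV1, orange for DU145), with 95% counting intervals as lines. Intervals of S1PR1 in DU145 cells run past the axis, and its ratio in DU145 vector cells has no point since 1 library had 0 reads. S1PR3, S1PR5 and LPAR1 lie to the left of 0 in both DU145 pairs, at -0.99 to -1.60, while F2RL1 lies to the right at 0.71 and 0.83.

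The third comparison, PAGE4 cells against vector cells, is the one the study was built on. Vector cells and PAGE4 cells were separately selected populations, so PAGE4 and a difference between populations cannot be told apart. No further populations are described, so the PBS pair and the H2O2 pair of a line are not independent checks. The SE of a PAGE4 effect covers the spread between these libraries only. S1PR3 was lower in PAGE4 cells in all 4 pairs, by far more in 22RV1 cells than in DU145 cells. F2RL1 was lower in PAGE4 cells of 22RV1 and higher in PAGE4 cells of DU145. S1PR5 and LPAR3 were higher in PAGE4 cells of 22RV1, and F2R was higher in PAGE4 cells of both lines with H2O2 but not with PBS.

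S1PR3 had log2 ratios of PAGE4 over vector of -3.19 (interval -3.72 to -2.70) with PBS and -2.84 (interval -3.33 to -2.38) with H2O2 in 22RV1 cells. In DU145 cells, the ratios were -0.98 (interval -1.18 to -0.79) with PBS and -0.73 (interval -1.03 to -0.43) with H2O2. The effect differed between the lines by -2.12 ± 0.29. S1PR3 was already named in earlier results of these data for this comparison. C9orf47, the synonym row, had ratios of -3.95 and -3.19 in 22RV1 cells and of -1.57 and -1.41 in DU145 cells, also lower in all 4 pairs, from 1 to 25 reads per library.

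F2RL1 had log2 ratios of -0.38 (interval -0.50 to -0.25) with PBS and -0.69 (interval -0.82 to -0.56) with H2O2 in 22RV1 cells. In DU145 cells, the ratios were 0.67 (interval 0.52 to 0.82) with PBS and 0.79 (interval 0.67 to 0.92) with H2O2. The 2 lines went in opposite directions, with a difference of -1.25 ± 0.17, and the common value over the 4 pairs was 0.10 ± 0.21.

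LPAR3 had ratios of 0.64 (interval 0.55 to 0.72) with PBS and 0.96 (interval 0.84 to 1.07) with H2O2 in 22RV1 cells. In DU145 cells, where it was scarce, the ratios were 0.63 (interval -0.04 to 1.32) and -0.10 (interval -0.93 to 0.72). S1PR5 had ratios of 1.05 (interval 0.55 to 1.57) and 1.70 (interval 1.06 to 2.38) in 22RV1 cells, and of 0.12 (interval -0.09 to 0.34) and -0.10 (interval -0.49 to 0.29) in DU145 cells. For both genes, the intervals in 22RV1 cells were above 0 with either treatment and the intervals in DU145 cells included 0. A difference of the PAGE4 effect between the lines did not pass the limit for either (1.33 ± 0.36 for S1PR5 and 0.49 ± 0.31 for LPAR3). With no filter on low counts, the difference of S1PR5 did pass (1.31).

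F2R in PAGE4 cells was above vector cells with H2O2, at 1.13 (interval 0.53 to 1.76) in 22RV1 cells and 0.69 (interval 0.44 to 0.94) in DU145 cells. With PBS, its ratios were 0.12 (interval -0.21 to 0.45) and -0.02 (interval -0.23 to 0.18). The H2O2 libraries of vector cells were the lowest F2R library of each line, with 38 reads in 22RV1 cells and 215 in DU145 cells. LPAR1, from 12 and 32 reads in 22RV1 cells with H2O2, had a ratio of 1.87 (interval 0.87 to 2.96), and its other ratios lay between -0.15 and 0.14.

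S1PR2 was lower in PAGE4 cells of 22RV1, at -0.68 (interval -1.29 to -0.10) with PBS and -0.71 (interval -1.22 to -0.22) with H2O2, and was at 0.08 and 0.11 in DU145 cells with intervals that included 0. The main S1PR2 transcript shares 83 bp of exon with DNMT1 on the same strand. LPAR2 was at -0.30 and -0.57 in 22RV1 cells and at 0.25 and 0.26 in DU145 cells. Intervals of LPAR2 lay below 0 in 22RV1 cells with H2O2 (-0.94 to -0.20) and above 0 in both DU145 pairs (0.10 to 0.40 and 0.10 to 0.41). LPAR6 was above 0 only in DU145 cells with H2O2 (0.96, interval 0.07 to 1.90), from 17 and 33 reads, and every S1PR1 interval included 0.

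Over the 8 libraries, edgeR's quasi-likelihood test called 0 of the 10 receptors in PAGE4 cells against vector cells, beside 0.0981% of all 22418 genes called higher and 0.0758% called lower. At an unadjusted p under 0.05, 3 of 10 receptors passed, and 1731 of all genes, and DESeq2's Wald test called 1 receptor, LPAR3. S1PR3 had the largest common value of the 10, at -1.79 ± 0.35. In the fit of the difference between the lines, S1PR3 and F2RL1 were called with a lower PAGE4 effect in 22RV1 cells, against 0.977% of all genes called in that direction and 0.865% in the other. By the 1.5-fold count, 4 of 9 receptors changed in 22RV1 cells with PBS (20.3% of all genes), 7 in 22RV1 cells with H2O2 (23.6%), 3 in DU145 cells with PBS (15.7%) and 4 in DU145 cells with H2O2 (15.6%). Nothing is read from these numbers, since earlier results for this comparison were known when the receptors were chosen.

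**Figure D3:**
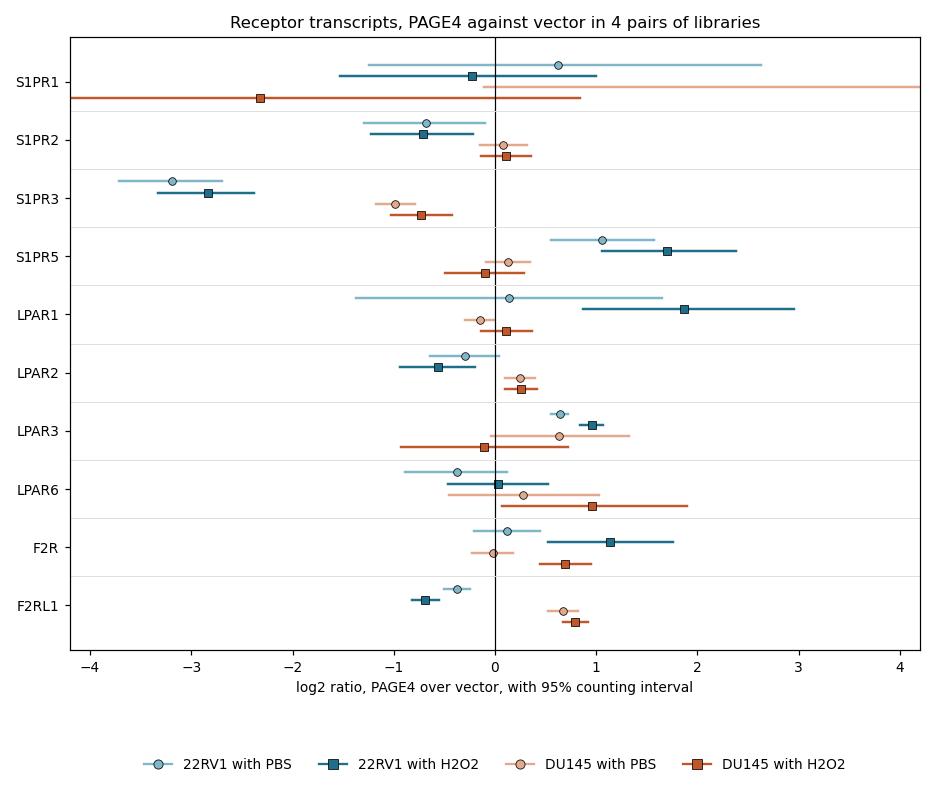
Log2 ratio of PAGE4 cells over vector cells for each receptor in the 4 pairs of libraries (circles for PBS, squares for H2O2, blue for 22RV1, orange for DU145), with 95% counting intervals as lines. S1PR3 lies to the left of 0 in all 4 pairs, from -3.19 to -0.73, and F2RL1 lies to the left in 22RV1 cells and to the right in DU145 cells.

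The families hold 15 receptors in all, and the other 5 are given here by their reads. LPAR5 had 7, 36, 8 and 17 reads in 22RV1 cells and 0, 1, 2 and 8 in DU145 cells, and it rose with H2O2 over the 4 pairs (log2 fold change 2.1 ± 0.60 by edgeR's quasi-likelihood test, adjusted p = 0.0423), while DESeq2's Wald test called 0 of the other receptors. F2RL2 (PAR3), which thrombin can also cut, had 98, 188, 72 and 144 reads in DU145 cells and 0 to 3 in 22RV1 cells, at or under the floor. F2RL3 (PAR4), also a thrombin receptor, had 166, 94, 114 and 66 reads in 22RV1 cells and 0, 11, 1 and 2 in DU145 cells. Its H2O2 response in 22RV1 cells less that in DU145 cells was -3.97 ± 1.17 by edgeR's quasi-likelihood test (adjusted p = 0.0271), which rests on the 11 reads in DU145 vector cells with H2O2 and was not called by DESeq2's Wald test. S1PR4 had 0 to 9 reads and LPAR4 0 or 1 per library, and neither could be tested.

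Genes that make, move or remove the lipid ligands were followed in a list of 15. The shares of all 22418 genes that go beside each list's counts are 8.89% higher and 11.2% lower with H2O2, and 31.9% higher and 28.5% lower in 22RV1 cells. With H2O2, 3 of them rose and the other 12 did not pass the test: SPNS2, an S1P exporter, by 1.10 ± 0.18 (adjusted p = 0.00624), SPHK1, a kinase that makes S1P, by 1.02 ± 0.17 (adjusted p = 0.00703), and PLPP3, a phosphatase that removes LPA and S1P, by 0.82 ± 0.16 (adjusted p = 0.0115), all in edgeR's quasi-likelihood test with Benjamini-Hochberg adjustment. SPHK1 went from 16.4 to 47.2 CPM in DU145 vector cells and from 6.98 to 12.5 CPM in 22RV1 vector cells. The median of the list was 0.26, beside -0.03 over all genes. Between the lines, 3 were higher and 7 lower in 22RV1 cells, among them PLPP1 (1.63), ASAH1 (1.09) and SPHK2 (0.73) higher, and PLPP2 (-3.72), MFSD2B (-2.63) and SGPP2 (-2.56) lower. ENPP2, the secreted enzyme autotaxin that makes LPA, had 0 to 18 reads per library. This list and those below were written with earlier results of these data known, so nothing is read from their counts or medians.

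Of 20 proteases, cofactors and inhibitors that act on PARs, 18 were tested. With H2O2, 3 rose and 3 fell. MMP1, a collagenase that can cut F2R, had 0 to 7 reads in the PBS libraries and 31 to 130 in the H2O2 libraries (adjusted p = 0.00145). THBD, the thrombin-binding protein thrombomodulin, rose from 19 to 256 reads in DU145 vector cells and from 30 to 280 in DU145 PAGE4 cells (adjusted p = 0.00376), while 22RV1 cells had 0 to 4 reads. SERPINE2, a thrombin inhibitor, rose by 1.62 ± 0.16 (adjusted p = 0.00116), all in edgeR's quasi-likelihood test. TMPRSS2 fell by 1.55 and KLK4 by 1.08, both prostate proteases and detected at no more than 6 reads in any DU145 library, and TFPI, an inhibitor of tissue factor, fell by 0.54. The median of the list was -0.0018, beside -0.03 over all genes. Between the lines, 6 were higher and 6 lower in 22RV1 cells: KLK14 was higher (1.80) beside TMPRSS2 and KLK4, and THBD, F10 (0 to 3 reads in 22RV1 cells) and PROCR (-2.63) had the largest differences on the lower side.

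The coupled G proteins, small GTPases, their exchange factors and kinases, and phospholipases made a list of 19. RHOB, a small GTPase, rose with H2O2 by 0.80 ± 0.11 (adjusted p = 0.00344), and 4 genes fell: the phospholipases PLCB3 (-0.91 ± 0.13), PLCB4 (-0.65 ± 0.17) and PLCB1 (-0.58 ± 0.12), and GNAI2 (-0.49 ± 0.10), all by edgeR's quasi-likelihood test. The median was 0.01. Between the lines, 8 were higher and 5 lower in 22RV1 cells, led by PLCB4 (2.63), RHOB (1.85) and PLCB1 (1.67) on the higher side and by GNAI1 (-2.37), ARHGEF1 (-1.25) and GNA12 (-0.91) on the lower side. Among 9 tested genes that switch off receptor signals, RGS16 rose with H2O2 by 2.45 ± 0.26, and RGS3 (-0.996 ± 0.245) and GRK6 (-0.61 ± 0.09) fell, and the median was -0.29. Between the lines, RGS2 (4.23) and GRK2 (0.40) were higher in 22RV1 cells, and GRK5 (-2.33), ARRB2 (-0.91) and RGS16 (-0.88) were lower.

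Of 11 transcripts known to rise when these receptors are stimulated, 5 rose with H2O2, beside the 8.89% of all genes. They were the chemokine CXCL8 (3.82 ± 0.28), the growth factor HBEGF (1.97 ± 0.26), FOS (1.81 ± 0.28), PTGS2 (1.28 ± 0.38) and EDN1 (0.93 ± 0.20), and the median of the list was 0.93, beside -0.03 over all genes. CXCL8 went from 60 to 802 reads in DU145 vector cells and from 2 to 22 in 22RV1 vector cells. Many other stimuli raise the same transcripts. The list was also written with earlier results of these data known, so nothing is read from its count or median. Between the lines, 8 were lower in 22RV1 cells (28.5% of all genes), among them CXCL8 (-5.95), ANKRD1 (-5.41) and IL6 (0 reads in every 22RV1 library and 7 to 12 in DU145 libraries), and PTGS2 was higher (2.83). In PAGE4 cells against vector cells, edgeR's quasi-likelihood test called 0 of the 75 genes tested in these 6 lists of other receptors and pathway genes, 15 passed at an unadjusted p under 0.05, and DESeq2's Wald test called 2. Over all genes, edgeR called 39 of 22418, 1731 passed at an unadjusted p under 0.05, and the Wald test called 90 of 16768. Nothing is read from the counts of these lists either.

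**Figure D4:**
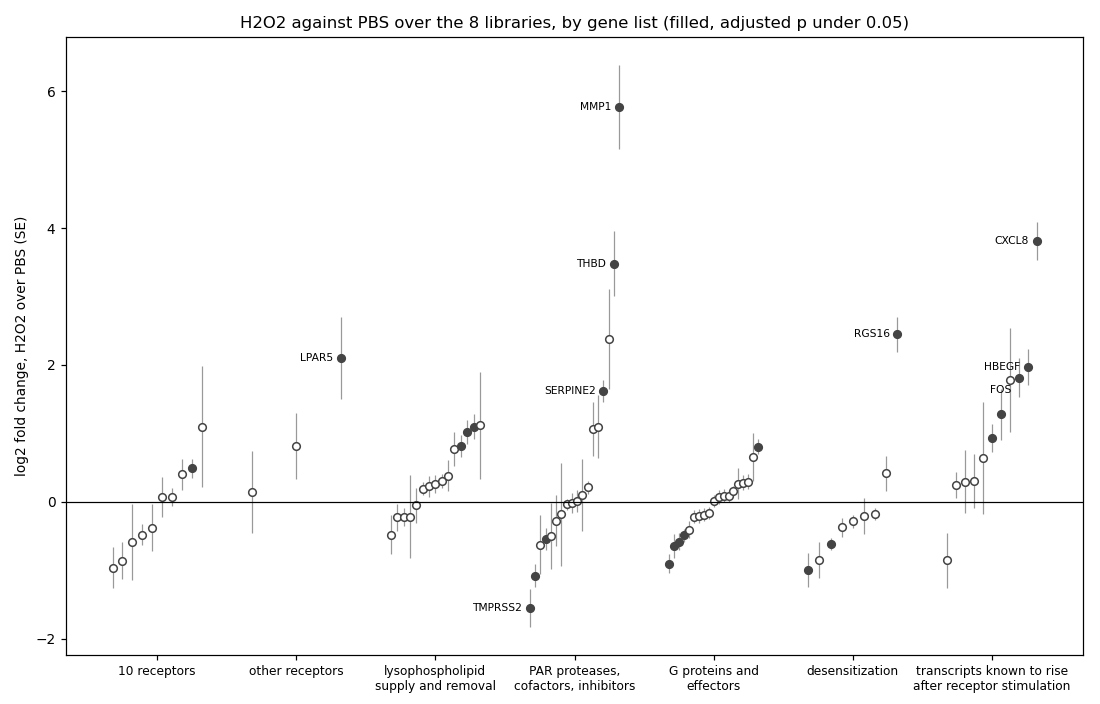
Log2 fold change of H2O2 over PBS from the fit across the 8 libraries, for the 10 receptors, the other receptors and the 5 pathway lists, with SE as lines and filled points for an adjusted p under 0.05. Names mark called genes beyond 1.5 on the log2 scale. The receptors lie between -0.96 and 1.10 with 1 filled point, F2RL1, while CXCL8, MMP1 and THBD lie above 3 in their lists.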

How the data were processed

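The deposited values are raw counts of reads per gene for 8 libraries. The authors used HISAT2 2.1.0 for alignment (GRCh38) and featureCounts 1.6.0 for counting, and the deposited counts are not normalized. Their own differential analysis, by DESeq2, is not used here. The annotation release and strand setting are not given in the sources used here. The labels name Trizol for extraction and the methods a column kit. Of 58828 symbols, 26 had become dates and were kept as written.

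Libraries were grouped by cell line, construct and treatment from their titles. edgeR 4.0.16 was used for quasi-likelihood tests on the counts (R 4.3.3; TMM, filterByExpr, Benjamini-Hochberg adjusted p under 0.05), with the 4 matched pairs of libraries as blocks. The pairs share cultures, so p-values measure the spread between these libraries. Single pairs were compared by log2 ratio with 95% exact conditional binomial intervals (scipy 1.17.1), and counted beyond 1.5-fold where the normalized counts of a line averaged 10 or more. Lengths, positions and overlaps came from GENCODE, motifs from RefSeq windows. The tests were tested on simulated data.

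The receptors and gene lists were chosen with earlier results of these data known. All 10 receptors and the 5 other receptors are given; of each pathway list, up to 3 genes per direction with the largest fold change among those called, for H2O2 and then for the line. GNAI2, PTGS2 and EDN1, and the genes named from the differences between lines, were added after their values were seen. One gene of the 22RV1 marker list is not reported here. Alternatives were DESeq2 1.42.0 size factors and its Wald test, no filter, another block, each pair left out, total counts, a 2-fold limit, a minimum of 50 and levels without length.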

Additional observations from a re-analysis of the deposited data

Results flagged for a closer look

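Effects were picked out where edgeR's quasi-likelihood test of the difference between the 2 cell lines passed the limit (adjusted p under 0.05). They cover 4 receptors under H2O2 and 2 under PAGE4. Among all 22418 genes, 8.76% were called higher and 7.54% lower for H2O2, and 0.865% and 0.977% for PAGE4. The receptors were chosen with earlier results of these data known, so nothing is read from these counts and the values are a description. The log2 response to H2O2 in 22RV1 cells less that in DU145 cells was 3.10 ± 0.47 for LPAR1, 1.64 ± 0.28 for S1PR3, 1.25 ± 0.36 for S1PR5 and -3.97 ± 1.17 for F2RL3 (SE). DESeq2's Wald test did not call S1PR5 or F2RL3. The value of F2RL3 rests on 0 to 11 reads per DU145 library, and that of LPAR1 on 9 to 32 reads per 22RV1 library. The log2 effect of PAGE4 in 22RV1 cells less that in DU145 cells was -2.12 ± 0.29 for S1PR3 and -1.25 ± 0.17 for F2RL1. All 4 pairs of S1PR3 were lower in PAGE4 cells, while F2RL1 was lower in both 22RV1 pairs and higher in both DU145 pairs. The libraries of a line share its culture, so culture and line cannot be told apart. A PAGE4 effect likewise cannot be told apart from a difference between the separately selected vector and PAGE4 populations.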

How the results depend on the processing

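Of 286 fold changes of receptors under alternatives, 251 kept direction and call, 7 lost and 19 gained a call, and 9 changed sign, all 9 when a pair was left out. In the main fits, 9 of 10 receptors were not called for H2O2 and 10 of 10 for PAGE4. Keeping the call there mostly means staying uncalled. Few reads limit S1PR1, LPAR1 in 22RV1 cells and, of the other receptors, LPAR4, LPAR5, S1PR4, F2RL2 in 22RV1 cells and F2RL3 in DU145 cells. For H2O2, 1 receptor was called, against 4 with DESeq2's Wald test, 4 with no filter, 0 when the block was the cell line and 0 to 3 with a pair left out. Both sets of 4 were S1PR5, LPAR3 and F2R, lower, and F2RL1, higher. Over all genes, 4506 of 22418 were called in the main fit and 5711 of 18506 with DESeq2's Wald test. With no filter, 5837 of 41771 were called, and with the cell line as block 5417 of 20967. All genes called were between 1974 and 3880 with a pair left out. There the log2 fold change of LPAR1 ranged from -1.17 to 0.067 and that of LPAR6 from -0.11 to 0.27.

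For PAGE4, 39 genes and 0 receptors were called, against 90 and 1 with DESeq2's Wald test, 483 and 2 with no filter, 1 and 0 when the block was the cell line, and 10 to 76 and 0 to 2 with a pair left out. With a pair left out, the log2 fold change ranged from -0.016 to 0.58 for LPAR1, from -0.17 to 0.11 for LPAR2, from -0.037 to 0.38 for LPAR6, from -0.14 to 0.37 for F2RL1 and from -0.33 to 0.73 for S1PR1. With no filter, the H2O2 response differed between the lines for 5 receptors in place of 3, as F2R and F2RL1 joined. The PAGE4 effect then differed for 806 genes in place of 413, and for 3 receptors in place of 2, as S1PR5 joined. For the H2O2 response, F2RL1 joined the 3 with DESeq2 size factors, and S1PR5 dropped out with DESeq2's Wald test.

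At a 2-fold limit, of 9 receptors, those changed by H2O2 were 1 in 22RV1 vector cells, 1 in 22RV1 PAGE4 cells, 3 in DU145 vector cells and 2 in DU145 PAGE4 cells. By PAGE4 they were 2 and 4 in 22RV1 cells and 0 and 0 in DU145 cells, with PBS and H2O2. The share of all genes past 2-fold was not counted, so nothing is read from these counts. A stricter limit leaves fewer genes by construction, and the cause of the other changes was not tested.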

Other observations

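Among the pathway genes, the H2O2 response also differed between the lines for 24 of 75 genes tested, by edgeR's quasi-likelihood test with Benjamini-Hochberg adjustment, against 8.76% of all genes called higher and 7.54% called lower, and DESeq2's Wald test called 17. Over all genes, the Wald test called 2788 of 14160. The genes named here were chosen after their values were seen. Of 11 transcripts known to rise after receptor stimulation, 5 had a higher response in 22RV1 cells, namely CCN1 (log2 difference 2.36 ± 0.24, adjusted p = 3.01e-06), ANKRD1 (2.06 ± 0.42), EGR1 (1.83 ± 0.28), FOS (1.17 ± 0.28) and CCN2 (0.81 ± 0.21), and HBEGF had a lower one (-0.90 ± 0.29). CCN1 went from 144 to 107 CPM with H2O2 in DU145 vector cells and from 3.76 to 14.6 CPM in 22RV1 vector cells. Of the G proteins and effectors, GNAI1 (1.09), PLCB4 (0.69), PLCB3 (0.58), ARHGEF12 (0.50) and GNAI2 (0.32) had a higher response in 22RV1 cells. Of the desensitization genes, RGS3 (1.23) and the arrestin ARRB1 (1.23) had a higher response in 22RV1 cells and RGS2 a lower one (-1.34). F3, the tissue factor that starts thrombin formation, had a lower response in 22RV1 cells (-1.88 ± 0.24): it went from 24.1 to 8.18 CPM in 22RV1 vector cells and from 7.49 to 11.6 CPM in DU145 vector cells.

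The PAGE4 effect differed between the lines for 4 of the 75 genes by the same test, against 0.865% of all genes called higher and 0.977% called lower. It was lower in 22RV1 cells for SPHK1 (-0.92 ± 0.21), for ST14, the protease matriptase that cuts F2RL1 (-0.81 ± 0.14), and for RGS3 (-0.67 ± 0.16), and higher for PROCR, the protein C receptor (1.56 ± 0.21). ST14 had 107 CPM in 22RV1 vector cells with PBS and 95.8 CPM in PAGE4 cells, and 48.7 and 79.8 CPM in DU145 cells.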
